A study of Mus musculus with 12 samples.

Results

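Paclitaxel-resistant and vinorelbine-resistant derivatives of one mouse breast cancer line were compared directly, 3 libraries of PAC-R against 3 libraries of VIN-R, out of 12 libraries in the series. The members were chosen by their labels, and presence of macrophage RNA, defined as more than 100 CPM of the macrophage lysozyme gene Lyz2, was a covariate of the comparison. The line is PB3, whose cells lack the estrogen receptor, the progesterone receptor and HER2. The parental cells, left untreated, formed the Control group, and another derivative, ERI-R, completed the series. Per the labels, resistant clones were generated with 300, 500 and 800 nM of paclitaxel for PAC-R, of vinorelbine for VIN-R and of eribulin (spelled erubilin in part of the labels) for ERI-R. Which concentration the sequenced cells had seen, whether they were still under drug, and whether a derivative is 1 clone or several is not stated in the labels. All groups were grown in the same medium, and polyadenylated RNA was sequenced. Nothing in the labels says that replicates came from separate cultures, so the p-values reflect the spread among these libraries alone, which may be technical. No gene was targeted in this design, so there was no targeted gene to check.

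Both drugs bind the beta subunit of tubulin and disturb the mitotic spindle, but they do so in opposite ways. Paclitaxel, a taxane, stabilises microtubules, while vinorelbine, a vinca alkaloid, blocks their growth. Cells that survive either drug are known to show more drug efflux through the P-glycoprotein pump, an altered make-up of tubulin isotypes or weaker apoptosis, and both drugs are substrates of that pump. The comparison asks which transcripts set the cells selected with 1 of these drugs apart from those selected with the other.

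The 6 libraries held between 11493830 and 13376686 expected counts each, and 3 counts corresponded to between 0.221 and 0.288 CPM. CPM is here a count divided by its library's total after TMM scaling over all 12 libraries, and floors of this kind cover counting error only. Lyz2 stood at 1401, 509 and 0 CPM in PAC-R 1 to 3 and at 182, 1389 and 0 CPM in VIN-R 1 to 3. The libraries with macrophage RNA therefore differed among themselves, with PAC-R 1 and VIN-R 2 at the high end of these 4 libraries and VIN-R 1 at the low end. The summed level of the leukocyte markers followed the same order, at 7420, 2917 and 56.4 CPM in PAC-R and 1118, 6984 and 49.8 CPM in VIN-R. Replicate 3 of each line also had a lower share of mitochondrially encoded counts (1.84% and 1.76%) than the other 4 libraries (3.22% to 4.35%). In such bulk samples fewer cells of a type and less RNA per cell cannot be told apart.

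PAC-R and VIN-R had similar levels of most transcripts, and no single gene passed the test across all genes. Of 13069 genes tested, edgeR's quasi-likelihood test with Benjamini-Hochberg adjustment called 0 higher and 0 lower in PAC-R (0% called), and the smallest adjusted p was 0.238, for Cavin1. At an unadjusted p under 0.05, 166 genes were higher in PAC-R (1.27% of those tested) and 100 lower (0.765%), 266 in all (2.04%). DESeq2, run as an alternative on the same counts with the same covariate, called 26 genes higher (0.199%) and 6 lower (0.0459%). limma voom called 0 in either direction, with 170 higher and 106 lower at an unadjusted p under 0.05. The median absolute log2 fold change was 0.121, and 9128 genes (69.8%) had a 95% interval wholly within 1 log2 unit of 0. For 11923 genes (91.2%) the interval lay within 2 log2 units. The unadjusted counts depended on single libraries: they were 749 and 142 without VIN-R 2, 391 and 221 without VIN-R 1, 94 and 61 without PAC-R 1, 127 and 149 without PAC-R 2, 116 and 49 without PAC-R 3, and 119 and 44 without VIN-R 3. Only without PAC-R 2 were there more lower than higher genes.

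**Figure D1:**
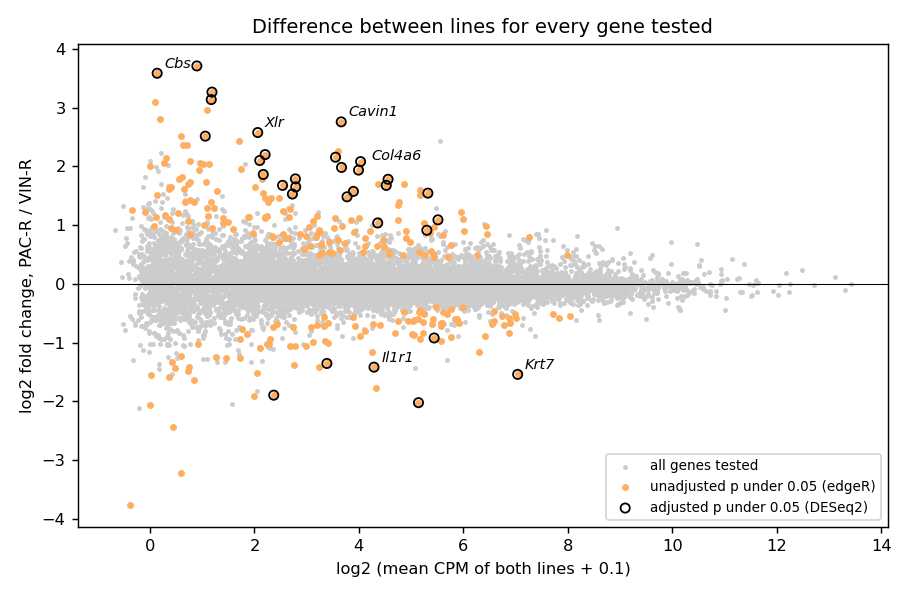
Log2 fold change of PAC-R over VIN-R (vertical axis) against the log2 of the mean CPM of both lines plus 0.1 (horizontal axis) for the 13069 genes tested. Grey points are all genes, orange points the 266 genes at an unadjusted edgeR p under 0.05 and black rings the 32 genes called by DESeq2, 26 above the zero line and 6 below it.

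The genes described next had the 10 smallest p-values in each direction, none of them called by edgeR, and other single genes, apart from Cdh1, Epcam, Vim, Zeb1, Lyz2, Ptprc and the beta-tubulins and efflux pumps, were chosen after their values were seen. Among all genes, 52 stood at least 2-fold higher in PAC-R with at least 5 CPM and no overlap between lines, both with and without macrophage RNA (0.398%), and 22 stood lower by the same rule (0.168%). Caveolae are small flask-shaped pits of the plasma membrane, formed by caveolins and coated by cavins. Cavin1, which encodes the coat protein that caveolae need to form (chromosome 11, 100956733 to 100970887, GRCm38), had the smallest p of all genes. It stood at 20.5, 19.3 and 25.9 CPM in PAC-R 1 to 3 and at 3.68, 2.92 and 3.03 CPM in VIN-R 1 to 3. All 3 PAC-R libraries were far above all 3 VIN-R libraries, and the 3 Control libraries, at 3.69, 1.76 and 1.92 CPM, lay near VIN-R. The log2 fold change was 2.76 (SE 0.24, 95% interval 2.19 to 3.33), with an edgeR adjusted p of 0.238 and a DESeq2 adjusted p of 4.76e-16. With the mean log2 level of the leukocyte markers as covariate in place of presence, edgeR called Cavin1 at an adjusted p of 0.015 and a log2 fold change of 2.78. The adjusted p of Cavin1 ranged from 4.76e-16 to 1 over all alternatives, and its log2 fold change from 2.59 to 2.93.

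The partners of Cavin1 in caveolae had log2 fold changes near 0. Cav1, the main caveolin, stood at 411 ± 89.0 CPM in PAC-R and 370 ± 132 CPM in VIN-R (SD, n = 3 each), and its log2 fold change was 0.17 with a 95% interval of -0.37 to 0.71. The log2 fold changes of Cav2 and of the cavins Cavin2 and Cavin3 were -0.06, -0.19 and 0.26, and the interval of Cavin3 was wide (-1.38 to 1.91). Ehd2 and Pacsin2, which act at the neck of caveolae and in membrane bending, had 0.08 and 0.10. Intervals for Cav2 (-0.48 to 0.37), Cavin2 (-0.61 to 0.23), Ehd2 (-0.51 to 0.67) and Pacsin2 (-0.29 to 0.49) lay below the 2.19 that bounded Cavin1 from below.

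Promoters are shown for Cavin1, the gene with the smallest p, and for Col6a1 and Col6a2, neighbouring collagen genes described next that stood on the same side. Each runs 5′ to 3′ on the gene's own strand from 250 bases before to 50 bases after the start, from RefSeq (GRCm38.p6). Capitals mark a GC box (GGGCGG, or CCGCCC on the other strand) or a CCAAT box (CCAAT, or ATTGG on the other strand), and TATAAA was searched on both strands as well.
Cavin1, chr11:100970568-100970867, minus strand: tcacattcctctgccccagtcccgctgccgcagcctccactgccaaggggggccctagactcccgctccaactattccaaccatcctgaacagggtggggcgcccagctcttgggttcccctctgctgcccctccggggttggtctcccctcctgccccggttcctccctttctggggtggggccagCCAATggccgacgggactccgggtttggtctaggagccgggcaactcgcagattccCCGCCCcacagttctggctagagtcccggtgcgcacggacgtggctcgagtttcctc
Col6a1, chr10:76725995-76726294, minus strand: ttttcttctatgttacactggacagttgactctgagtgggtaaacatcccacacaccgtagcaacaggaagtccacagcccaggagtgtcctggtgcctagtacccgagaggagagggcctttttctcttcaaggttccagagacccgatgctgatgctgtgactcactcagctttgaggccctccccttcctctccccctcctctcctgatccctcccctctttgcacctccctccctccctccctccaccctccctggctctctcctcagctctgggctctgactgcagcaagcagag
Col6a2, chr10:76623581-76623880, minus strand: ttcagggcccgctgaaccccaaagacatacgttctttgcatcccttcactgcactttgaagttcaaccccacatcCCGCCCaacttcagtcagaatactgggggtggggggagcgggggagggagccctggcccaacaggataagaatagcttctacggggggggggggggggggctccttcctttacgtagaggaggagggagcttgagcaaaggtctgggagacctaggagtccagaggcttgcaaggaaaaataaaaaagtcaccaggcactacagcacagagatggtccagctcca
The Cavin1 window held 1 GC box and 1 CCAAT box, the Col6a2 window 1 GC box, and the Col6a1 window none of these motifs. Among 27025 promoter windows of the same length, 35.9% held a GC box, 37.9% a CCAAT box and 14.2% TATAAA.

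Collagens were the list with the most members at an unadjusted p under 0.05. Of 23 tested, 7 were higher in PAC-R at that level (1.27% of all genes) and 0 lower (0.765% of all genes). DESeq2 called 4 of them (0.199% of all genes), and the list's median log2 fold change was 0.465 against -0.012 over all genes. Collagen VI forms beaded filaments in the matrix around cells. Its alpha 1 chain, Col6a1, stood at 40.2, 25.03 and 44.0 CPM in PAC-R and 12.6, 9.69 and 9.30 CPM in VIN-R, without overlap. The Control mean of Col6a1 was 20.6 ± 11.7 CPM (SD, n = 3), between the means of the lines. Its log2 fold change between the lines was 1.78 (SE 0.28, DESeq2 adjusted p = 0.000146, edgeR adjusted p = 0.565). Its neighbour on chromosome 10, the alpha 2 chain gene Col6a2, stood at 10.6, 5.14 and 4.78 CPM against 2.59, 2.19 and 1.03 CPM, also without overlap, with a log2 fold change of 1.86 (SE 0.38).

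Col4a6, a chain of the collagen IV network of basement membranes (chromosome X, 141165403 to 141474076), stood at 19.3, 27.9 and 31.8 CPM in PAC-R and 6.86, 5.85 and 5.83 CPM in VIN-R. The lines did not overlap, and the Control mean of 42.9 ± 9.21 CPM (SD, n = 3) was above both. Its log2 fold change was 2.08 (SE 0.26, 95% interval 1.45 to 2.71, DESeq2 adjusted p = 4.49e-07). Col4a5, the chain gene that lies head to head with it, had a log2 fold change of -0.26 (95% interval -0.82 to 0.30). Col23a1, a transmembrane collagen, had means of 3.27 ± 1.00 CPM and 0.255 ± 0.173 CPM (SD, n = 3 each). VIN-R held 9 counts of Col23a1 in all, so this difference rests on few counts. Col5a3, Col16a1 and Col27a1 had log2 fold changes of 1.16, 0.50 and 1.16.

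Col1a1, Col1a2, Col5a1 and Col4a1 were not among the collagens at an unadjusted p under 0.05. For Col1a1 and Col1a2 the intervals were wide and do not exclude a difference. Col1a1 and Col1a2, the chains of collagen I, had log2 fold changes of 0.42 and 0.58 with intervals of -1.53 to 2.37 and -2.36 to 3.52, and their CPM followed macrophage RNA, with Col1a2 at 0.0747 and 0 CPM in the replicates numbered 3. Col5a1, whose level is higher, had 0.09 (95% interval -0.29 to 0.47), and Col4a1 had -0.04. The number of collagens at an unadjusted p under 0.05 was between 5 and 8 higher when any 1 of the 6 libraries was left out, with 1 lower without VIN-R 1. The median of the list was 0.141 without PAC-R 1 and 0.255 without VIN-R 1, but 0.914 without VIN-R 2.

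Other matrix-related genes called by DESeq2 were chosen after their values were seen, with no list behind them. Serpinh1, the collagen chaperone of the endoplasmic reticulum, stood at 51.9, 32.5 and 21.1 CPM in PAC-R and 8.12, 14.99 and 8.71 CPM in VIN-R (log2 fold change 1.68, DESeq2 adjusted p = 0.00763). Mrc2, an endocytic receptor for collagen, stood at 46.7, 39.7 and 101 CPM against 22.5, 20.6 and 42.6 CPM. Its lines overlapped only across macrophage status: among replicates 1 and 2, and in replicate 3, PAC-R was higher (log2 fold change 1.09, SE 0.17, DESeq2 adjusted p = 0.00015). Aebp1, a collagen-binding matrix protein, had a log2 fold change of 1.55 (SE 0.26). Control means were 38.1 ± 6.53 CPM for Serpinh1, 85.9 ± 28.5 CPM for Mrc2 and 54.1 ± 12.9 CPM for Aebp1 (SD, n = 3). Each lay above every VIN-R library, so the higher level in PAC-R is not a rise over Control alone. In the mesenchymal list, which includes matrix genes, 2 of 34 were higher at an unadjusted p under 0.05 (the metalloproteinase inhibitor Timp3, 1.10, and the fibrillin Fbn1, 0.99) and 1 lower (Fbln1, fibulin-1, -0.87). Among 33 integrins, laminins and proteoglycans only the laminin chain Lama4 had such a p (0.71). Over all genes, 2.04% had such a p.

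**Figure D2:**
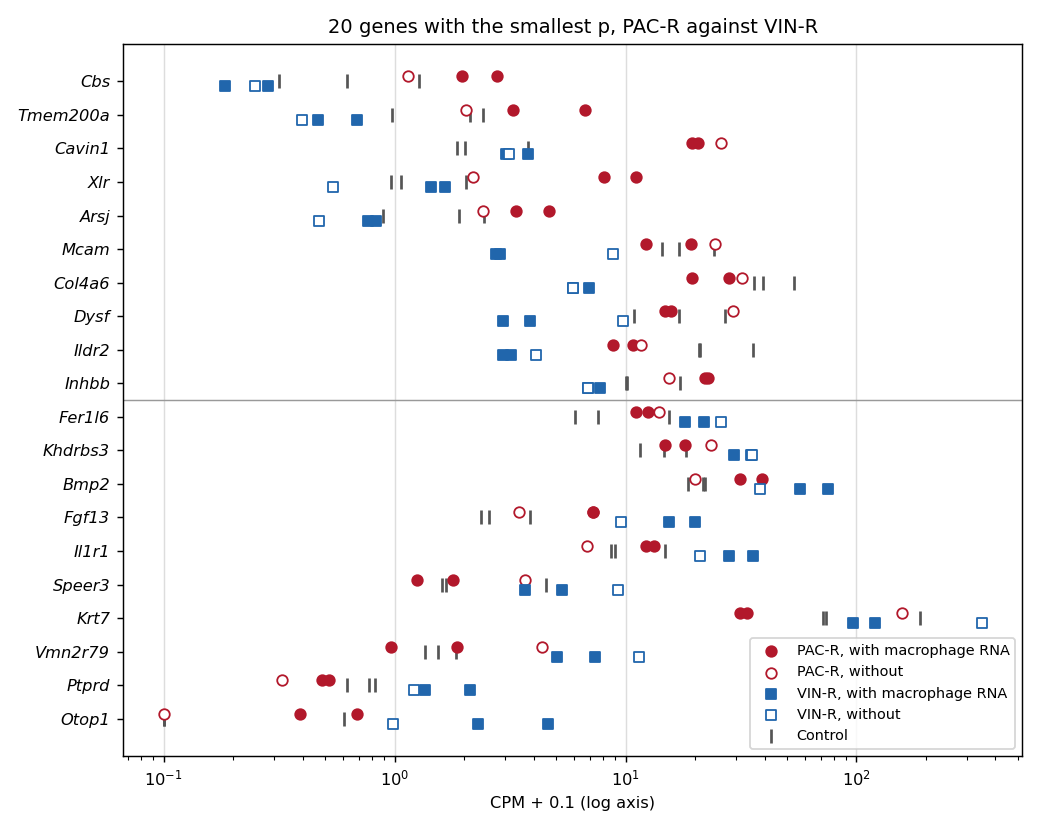
CPM plus 0.1 in each library (horizontal log axis) for the 10 genes with the smallest p in each direction, ordered by log2 fold change; circles are PAC-R, squares VIN-R, grey ticks Control, and open symbols the libraries without macrophage RNA. In the upper genes, such as Cavin1 (19.3 to 25.9 CPM against 2.92 to 3.68 CPM), the circles lie to the right of the squares, and in the lower genes to the left among symbols of the same filling.

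Mcam, an adhesion molecule of pericytes and endothelium that is not in the marker list below, was among the genes with the smallest p. It stood at 19.1, 12.2 and 24.4 CPM in PAC-R and 2.76, 2.65 and 8.71 CPM in VIN-R. The lines did not overlap, the Control mean was 18.4 ± 5.00 CPM (SD, n = 3), and the log2 fold change was 2.16 (SE 0.32, 95% interval 1.38 to 2.93). The summed endothelial and pericyte markers stood at 113, 140 and 35.1 CPM in PAC-R 1 to 3, at 46.7, 52.6 and 26.4 CPM in VIN-R and at 93.7, 105 and 66.2 CPM in Control, with overlap of PAC-R 3 and VIN-R 1 and 2. All 8 tested markers had a positive log2 fold change (median 0.58), none was called, and 2 had an unadjusted p under 0.05 (2.04% of all genes). These were Rgs5, a pericyte regulator of G-protein signalling (1.59), and Flt1, a VEGF receptor (0.65), and Rgs5 stood at 23.3 to 64.3 CPM in Control. The median was 0.49 without PAC-R 1, when 2 of the 8 were negative, and 0.16 without VIN-R 1, when 3 were. Of the 15 markers in the list, 8 reached 1 CPM in at least 1 of the 6 libraries, 7 stayed under 1 CPM, and Cldn5 and Tie1 were at 0 in all 6. Pecam1 reached 10.2 CPM in PAC-R 1 and 7.31 CPM in VIN-R 2, and Kdr 6.52 and 7.40 CPM, the libraries with the most macrophage RNA. Fibroblast markers summed to 267, 208 and 412 CPM against 183, 237 and 278 CPM. Of 15 such markers, 8 reached 1 CPM, among them Col1a2 (36.3 CPM in PAC-R 1 and 31.4 CPM in VIN-R 2) and Pdgfra (10.5 to 28.9 CPM), 7 stayed under 1 CPM, and Dpt and Tcf21 were at 0 in all 6. The part of such cells in the differences of collagens and Mcam was not tested.

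Components of TGF-beta and activin signalling contributed 5 of 29 members at an unadjusted p under 0.05, all higher in PAC-R (1.27% of all genes), while the median of the list was 0.00741. Activins are dimers of inhibin beta chains, and follistatin binds and neutralises them. Inhbb, the activin beta B chain (chromosome 1, 119415465 to 119422248), stood at 22.7, 22.1 and 15.3 CPM in PAC-R and 6.78, 7.68 and 6.79 CPM in VIN-R. The lines did not overlap, and the log2 fold change was 1.48 (SE 0.20, 95% interval 0.99 to 1.98, DESeq2 adjusted p = 3.69e-05). The Control mean was 12.4 ± 4.10 CPM (SD, n = 3), between the lines. Fst, follistatin, stood at 3.36, 2.19 and 3.74 CPM against 1.00, 1.19 and 1.33 CPM, also without overlap (log2 fold change 1.39, SE 0.35). The latent TGF-beta binding proteins Ltbp2 and Ltbp4, which store the ligand in the matrix, and the ligand Tgfb2 had log2 fold changes of 0.86, 0.77 and 1.11. The count of 5 fell to 2 without PAC-R 3, to 3 without PAC-R 1 or VIN-R 3, and stood at 6 without VIN-R 2.

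Bone morphogenetic proteins are a further branch of this ligand family. Bmp2 was among the genes with the smallest p on the VIN-R side, at 38.8, 31.1 and 19.9 CPM in PAC-R and 75.3, 56.8 and 38.1 CPM in VIN-R. PAC-R 1 and VIN-R 3 overlapped, and within each macrophage status VIN-R was higher, with a log2 fold change of -0.92 (SE 0.19, DESeq2 adjusted p = 0.0496). Bmp7, a related ligand, and Bambi, a receptor decoy, were higher in PAC-R at an unadjusted p under 0.05 (1.26 and 1.61), both at under 3 CPM. Nkd2, an inhibitor of Wnt signalling, stood at 4.70, 5.56 and 1.57 CPM against 0.167, 0.914 and 0.148 CPM and was higher by DESeq2 (log2 fold change 3.27, adjusted p = 0.00535). VIN-R 1 and 3 were under the level of 3 counts and VIN-R held 14 counts in all, so this fold rests on few counts. Tcf7l1, a transcription factor of the Wnt pathway, was the other of 28 Wnt genes at an unadjusted p under 0.05 (0.81). In the Notch list 0 of 15 had such a p, and over all genes 2.04% did.

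The remaining genes with the smallest p on the PAC-R side had no common list. Dysf, dysferlin, which repairs membranes in muscle, stood at 15.6, 14.7 and 29.0 CPM in PAC-R and 3.77, 2.83 and 9.67 CPM in VIN-R, without overlap, and at 18.2 ± 8.14 CPM in Control (SD, n = 3). Its log2 fold change was 1.98 (SE 0.24, DESeq2 adjusted p = 4.49e-07). Ildr2, an immunoglobulin-like receptor, stood at 10.6, 8.76 and 11.6 CPM against 3.096, 2.83 and 3.99 CPM, both under the Control mean of 25.8 ± 8.53 CPM (SD, n = 3), with a log2 fold change of 1.65 (SE 0.23).

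Xlr, of a family of chromatin proteins of lymphocytes and germ cells, stood at 11.03, 8.01 and 2.09 CPM against 1.34, 1.55 and 0.443 CPM, a log2 fold change of 2.58 (SE 0.32). Xlr has close copies on the X chromosome, so the split of reads between them is uncertain. Arsj, an arylsulfatase, and Tmem200a, a membrane protein, had log2 fold changes of 2.52 and 3.14 and at most 6.57 CPM in any of the 6 libraries. Cbs, the first enzyme of the transsulfuration route from homocysteine to cysteine, stood at 2.68, 1.85 and 1.05 CPM in PAC-R and 0.0837, 0.183 and 0.148 CPM in VIN-R. Every VIN-R value of Cbs was under the level of 3 counts in its library, so its log2 fold change of 3.59 (95% interval 2.26 to 4.92) rests on few counts.

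On the VIN-R side, Il1r1, the signalling receptor of interleukin-1, stood at 27.9, 35.6 and 20.97 CPM in VIN-R 1 to 3 and at 13.2, 12.2 and 6.72 CPM in PAC-R 1 to 3. The lines did not overlap, and PAC-R and Control had the same mean of 10.7 CPM (SD 3.50 and 3.48, n = 3 each). Its log2 fold change was -1.42 (SE 0.20, 95% interval -1.90 to -0.94, DESeq2 adjusted p = 7.55e-05, edgeR adjusted p = 0.561). Krt7, a keratin of simple epithelia, stood at 121, 96.8 and 348 CPM in VIN-R and 31.1, 33.5 and 158 CPM in PAC-R. Replicate 3 was the highest of each line, so the lines overlapped across macrophage status but not within it, and the log2 fold change was -1.54 (SE 0.22, DESeq2 adjusted p = 5.03e-06). Control ranged around a mean of 111 ± 67.0 CPM (SD, n = 3).

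Fgf13, an intracellular relative of the fibroblast growth factors that binds sodium channels and microtubules (chromosome X, 59062145 to 59568071), stood at 19.8, 15.3 and 9.45 CPM in VIN-R and 7.10, 7.16 and 3.36 CPM in PAC-R. The lines did not overlap, the Control mean was 2.83 ± 0.818 CPM (SD, n = 3), and the log2 fold change was -1.36 (SE 0.22, DESeq2 adjusted p = 0.00185). The peptide hormone gene Cck, called by DESeq2, stood at 54.5, 24.7 and 85.8 CPM against 4.99, 10.96 and 30.2 CPM, with overlap of VIN-R 2 and PAC-R 3 (log2 fold change -2.02, SE 0.46, DESeq2 adjusted p = 0.0133).

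The other genes of smallest p were lower in abundance or smaller in size of difference. Khdrbs3, an RNA-binding splicing regulator, stood at 34.8, 29.3 and 35.2 CPM in VIN-R and 17.9, 14.7 and 23.3 CPM in PAC-R, and Fer1l6, a ferlin like Dysf, at 18.1, 21.8 and 25.8 CPM against 11.03, 12.5 and 13.9 CPM. Neither overlapped, with log2 fold changes of -0.84 and -0.80, and DESeq2 did not call them (adjusted p = 0.198 and 0.291). The vomeronasal receptor gene Vmn2r79 and Speer3, of a testis gene cluster, had log2 fold changes of -1.90 and -1.51, and both belong to families of near-identical copies. Otop1, a proton channel, and Ptprd, a receptor phosphatase, had -3.21 and -2.06, at most 0.59 and 0.421 CPM in any PAC-R library.

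Epithelial and mesenchymal identity genes were split. Cdh1, E-cadherin of epithelial junctions, stood at 6.42, 10.2 and 1.79 CPM in PAC-R and 0.92, 3.38 and 0.96 CPM in VIN-R, with a log2 fold change of 1.65 (95% interval 0.30 to 3.01, unadjusted p = 0.0243, edgeR adjusted p = 1). PAC-R 3 and VIN-R 2 overlapped, while within each macrophage status PAC-R was higher. Epcam, an epithelial adhesion molecule, had 1.49 with an interval of -0.43 to 3.42 and was lower in PAC-R 3 (0.224 CPM) than in VIN-R 3 (0.443 CPM). At an unadjusted p under 0.05, 1.27% of all genes were higher and 0.765% lower. Of 26 epithelial genes, 2 were higher at that level (Cdh1 and the transcription factor Ehf) and 2 lower (Krt7 and the tight-junction claudin Cldn1). The higher count was 0 without PAC-R 2, 1 without PAC-R 1, 4 without VIN-R 1, and 5 without VIN-R 2, PAC-R 3 or VIN-R 3. Ehf, Krt14 and the prolactin receptor Prlr each stood at no more than 0.374 CPM in the replicates numbered 3, so their differences (2.96, 2.51 and 2.36) rest on replicates 1 and 2. Both lines were far below ERI-R in Cdh1, whose ERI-R mean was 237 CPM.

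Vim and Zeb1, named in every case, had log2 fold changes close to 0. Vim, the filament protein vimentin, stood at 3242 ± 873 CPM in PAC-R and 3174 ± 914 CPM in VIN-R (SD, n = 3 each), and its log2 fold change was 0.02 (95% interval -0.76 to 0.80). Zeb1, a repressor of Cdh1, had -0.02 (95% interval -0.49 to 0.45). The signs of Vim and Zeb1 flipped under some alternatives, within -0.19 to 0.34 for Vim and -0.17 to 0.12 for Zeb1. The 21 transcription factors of the epithelial-mesenchymal transition ranged from -0.924 to 0.904, and 14 had intervals within 1 log2 unit of 0. Prrx1 was the only 1 of these 21 factors at an unadjusted p under 0.05, at 93.4, 120 and 42.4 CPM in PAC-R against 47.6, 53.6 and 29.3 CPM in VIN-R (log2 fold change 0.90). Mammary basal genes held 2 higher (Krt14 and Mme) and 1 lower (the neurotrophin receptor Ngfr) of 10, and luminal genes 2 higher (Prlr and Ly6a) and 0 lower of 20. The shares over all genes were 1.27% higher and 0.765% lower.

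Genes of the drugs' own target, tubulin, did not pass the test between the lines. Of 15 tubulins, 0 had an unadjusted p under 0.05, against 2.04% of all genes. The list's median log2 fold change was -0.038, and its range was -0.31 to 0.48. On the TPM scale, which is per length, Tubb5 was the highest of the 6 beta-tubulins named here, at means of 665 TPM in PAC-R and 695 TPM in VIN-R, followed by Tubb4b (302 and 314 TPM) and Tubb6 (205 and 224 TPM). Tubb5 stood at 1026, 697 and 1772 CPM in PAC-R and 1290, 665 and 1566 CPM in VIN-R, so replicate 3 was the highest and replicate 2 the lowest of each line. The log2 fold changes of Tubb5, Tubb4b and Tubb6 were -0.06, -0.04 and -0.08, with intervals of -0.83 to 0.71, -0.86 to 0.77 and -0.89 to 0.74, and their signs flipped under some alternatives.

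Tubb3, the neuronal isotype long discussed in taxane resistance, stood at 5.75, 1.60 and 9.64 CPM in PAC-R and 3.85, 1.83 and 6.20 CPM in VIN-R, fully overlapping. Its log2 fold change was 0.46 with an interval of -0.82 to 1.74, which does not exclude a difference of more than 2-fold, and it turned to -0.11 without PAC-R 1. Tubb2a and Tubb2b had 0.17 (-0.46 to 0.81) and 0.48 (-0.31 to 1.27), and Tubb2a turned to -0.04 without PAC-R 1. Tubulin genes are close paralogs that share reads. Among 31 microtubule-associated and plus-end proteins and 23 tubulin-modifying enzymes and chaperones, 0 had an unadjusted p under 0.05 (2.04% of all genes). Of these, 24 and 21 had intervals within 1 log2 unit of 0.

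Drug efflux genes did not pass the test either. P-glycoprotein, which pumps both drugs out of cells, is encoded in mice by Abcb1a and Abcb1b (chromosome 5, 8660077 to 8748575 and 8798147 to 8866315). Abcb1a stood at 36.1, 41.5 and 28.5 CPM in PAC-R and 50.7, 45.3 and 33.0 CPM in VIN-R, and at 20.9 ± 3.87 CPM in Control (SD, n = 3). The resistant lines overlapped across macrophage status, while within each status every PAC-R library was below every VIN-R library. The log2 fold change between the resistant lines was -0.27, with a 95% interval of -0.67 to 0.14. Abcb1b stood at 90.3, 93.7 and 68.2 CPM against 88.7, 107 and 90.2 CPM, with a log2 fold change of -0.19 (95% interval -0.61 to 0.23) and a Control mean of 67.0 ± 5.98 CPM (SD, n = 3). These 95% intervals reached 0.67 log2 units toward VIN-R and 0.23 toward PAC-R, and they do not exclude a larger difference. The paralogs share reads, so the split between them is uncertain.

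Abcc1, a further export pump, had a log2 fold change of -0.08 (95% interval -0.64 to 0.47), whose sign flipped under some alternatives. Abcg2, the breast cancer resistance protein, had 0.09 (95% interval -0.54 to 0.71), which turned to -0.12 without PAC-R 1 and -0.01 without VIN-R 1. Among the 24 ABC transporters tested, and among 13 genes that lie next to Abcb1a and Abcb1b on chromosome 5, 0 had an unadjusted p under 0.05 (2.04% of all genes), with medians of -0.0142 and -0.138. Of the 24 transporters, 15 had intervals within 1 log2 unit of 0.

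Gene lists for division, death and stress held no gene at an unadjusted p under 0.05, against 2.04% of all genes. Each list alone is too short to set 0 apart from that share, and the lists were not tested together. Among 30 mitosis and spindle checkpoint genes, the machinery that both drugs engage, 0 had an unadjusted p under 0.05, 28 had intervals within 1 log2 unit of 0, and 24 log2 fold changes were negative (median -0.0849). The lists of G1-S and replication genes (29 tested), p53 pathway genes (23) and BCL2 family and apoptosis genes (29) also held 0. So did NRF2 targets and detoxification (37), SWI/SNF subunits (23), DNA and histone methylation enzymes (40), glycolysis and hypoxia (37), cholesterol and fatty acid synthesis (34), and the unfolded protein and integrated stress responses (33). MAP kinase feedback and AP-1 genes (33), YAP and actin-SRF targets (29) and mitochondrially encoded genes (13) held 0 as well.

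Guidance and growth factor genes held a few. At an unadjusted p under 0.05, 1.27% of all genes were higher and 0.765% lower. Of 44 axon guidance and Eph-ephrin genes, 3 were higher (Ntn1, Sema3a and Sema3b) and 2 lower (Sema7a and Efna5) at an unadjusted p under 0.05. The netrin Ntn1 stood at 10.3, 7.501 and 8.89 CPM in PAC-R and 4.18, 4.39 and 2.66 CPM in VIN-R, without overlap (log2 fold change 1.28). In the growth factor list of 37 genes, 3 were higher (the ligand Pdgfc, Flt1 and the growth-factor-binding Igfbp7) and 1 lower (Fgf13), and Igfbp7 had the larger difference of the 3, at 1.34.

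**Figure D3:**
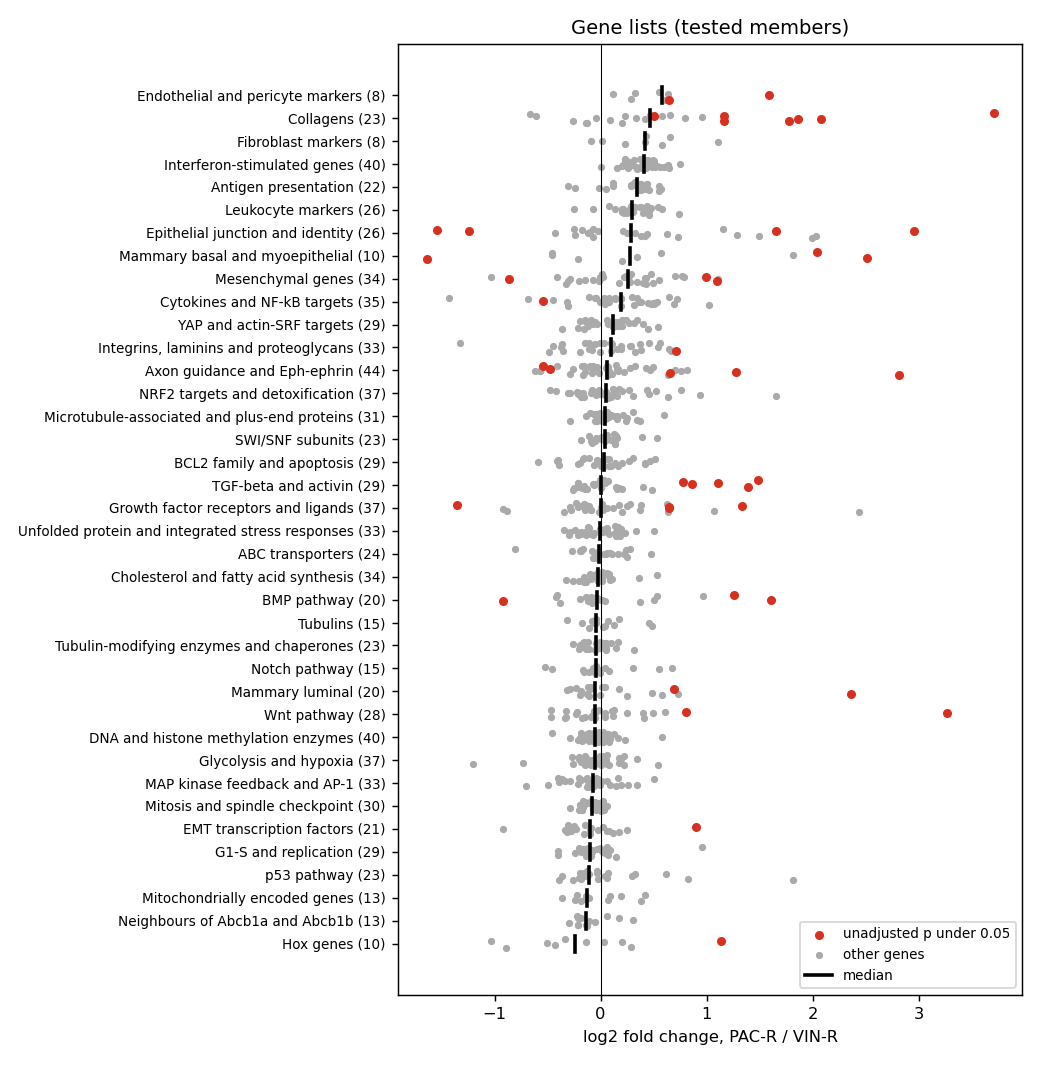
Log2 fold change of PAC-R over VIN-R (horizontal axis) for every tested member of the 38 lists with at least 5 tested members, whose number stands in parentheses; red points have an unadjusted edgeR p under 0.05 and black bars are medians. Collagens hold 7 red points, all to the right, while tubulins, ABC transporters and mitosis genes hold none.

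Interferon-stimulated genes, leukocyte markers and antigen presentation genes leaned to PAC-R without passing the test. All 40 interferon-stimulated genes had positive log2 fold changes (median 0.414, highest 0.75), as had 24 of 26 leukocyte markers (median 0.294) and 19 of 22 antigen presentation genes (median 0.34), with 0 at an unadjusted p under 0.05 in each list. This direction rested on single libraries. The median of the interferon list was -0.169 without PAC-R 1 and -0.19 without VIN-R 1, and 1.78 without VIN-R 2, when 14 members had such a p. Lyz2 itself had a log2 fold change of 0.27 (95% interval -2.55 to 3.099) and Ptprc, the leukocyte antigen CD45, of 0.47 (-1.98 to 2.93). Among 35 cytokines and NF-kB targets, Tslp, an epithelial cytokine, was lower at an unadjusted p under 0.05 (0.765% of all genes). It stood at 83.7, 90.5 and 84.1 CPM in PAC-R and 144, 126 and 108 CPM in VIN-R, without overlap (-0.54).

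Whether differences in the libraries with macrophage RNA were also present without it was read from separate libraries. In replicates 1 and 2 of both lines, 119 genes were higher (0.897% of 13273) and 43 lower (0.324%) in PAC-R at an unadjusted p under 0.05. Of these, 83 and 33 reached a mean of 1 CPM over PAC-R 3 and VIN-R 3, where 1 library stood on each side. There, 67 of the 83 higher genes were again higher in PAC-R 3 than in VIN-R 3 (80.7%), with a median log2 ratio of 0.90. Of the 33 lower genes, 30 were again lower (90.9%), with a median of -0.716. Over all genes past that mean with any positive or negative fold change in replicates 1 and 2, 38.8% and 43.3% kept the sign. The pair without macrophage RNA is 1 library per line, and those counts are a description with no test.

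**Figure D4:**
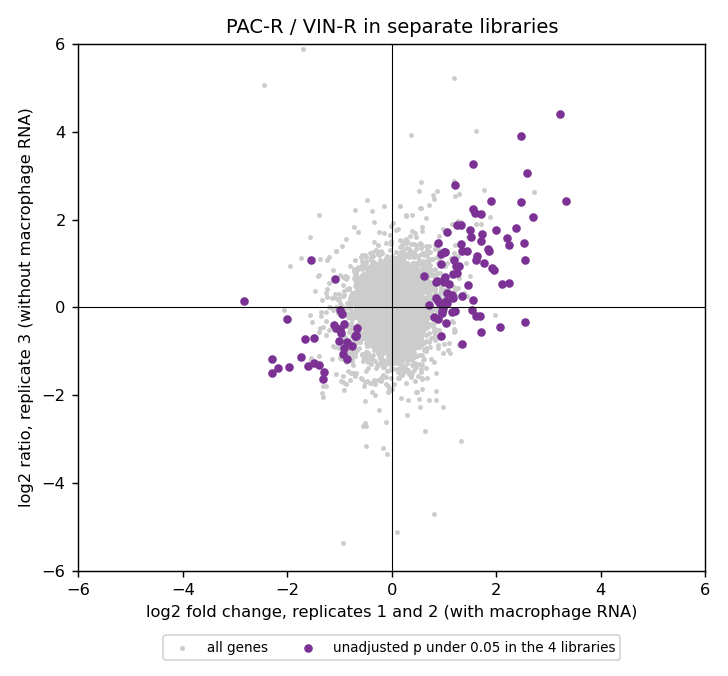
Log2 fold change in the 4 libraries with macrophage RNA (horizontal axis) against the log2 ratio of PAC-R 3 over VIN-R 3 (vertical axis). Genes shown had a mean of at least 1 CPM over the pair. Purple points had an unadjusted p under 0.05 in the 4 libraries, and 1 gene lies outside the axes. Most purple points, 67 of 83 on the right and 30 of 33 on the left, fall in the quadrants of equal sign.

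A direct test of whether the difference between lines depended on macrophage RNA, the interaction of line and presence, called 0 of 13069 genes by edgeR (adjusted p), with 63 at an unadjusted p under 0.05 (0.482%). Without VIN-R 2 that unadjusted count was 1097, without VIN-R 1 it was 106, and without PAC-R 1 or PAC-R 2 it was 39 or 24. DESeq2 called 2 genes, mt-Co3 and mt-Atp6, subunits of cytochrome oxidase and ATP synthase encoded side by side in the mitochondrial genome. Levels of mt-Co3 were 2940, 2510 and 456 CPM in PAC-R 1 to 3 and 4140, 3480 and 83.4 CPM in VIN-R 1 to 3. For mt-Atp6 they were 939, 1040 and 474 CPM against 1830, 1410 and 102 CPM. In both genes VIN-R was higher with macrophage RNA and PAC-R higher without it, and the latter rests on 1 library per line. Lack of macrophage RNA and replicate number 3 are the same split of these 6 libraries. The interaction therefore cannot tell macrophage RNA apart from anything else that sets replicate 3 apart, such as its lower mitochondrial share.

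Along the X chromosome, a block of neighbouring genes stood lower in PAC-R than in VIN-R. It was found after looking along all chromosomes with running medians of 21 genes in replicates 1 and 2, at a threshold of 0.3 log2 units, among genes with at least 5 CPM. The block ran from Akap17b to Firre (chromosome X, 36608314 to 50635321, GRCm38) and held 33 such genes, with a median log2 fold change of -0.513, or 0.701-fold. All 33 fold changes were negative, between -1.11 and -0.28, and 8 of the 33 had an unadjusted p under 0.05 (24.2%). Of 10399 autosomal genes with at least 5 CPM, 67 were lower and 103 higher at that level (1.63%). Of the 20 genes just after the block, 4 were lower and 3 higher (35%). The block's numbers come in part from the libraries that chose it. In replicate 3, which did not enter the choice, 32 of the 33 genes were lower in PAC-R, with a median log2 ratio of -0.623. Of the 10399 autosomal genes, 5562 were lower there, with a median of -0.0181. Running medians of 21 genes in replicate 3 fell to -0.69 on the X chromosome. They also fell to -0.564 on chromosome 11, -0.548 on chromosome 1 and -0.535 on chromosome 5. The 20 genes just after the block had a median of -0.657 in replicate 3, as low as the block's, so this pair of libraries does not set the end of the block. The 20 genes before it had -0.151, and the other 274 X-linked genes -0.112.

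Single genes of the block differed in how their libraries spread. Zdhhc9, a palmitoyltransferase, stood at 37.9, 32.8 and 39.4 CPM in PAC-R and 62.2, 51.6 and 60.7 CPM in VIN-R, without overlap (log2 fold change -0.66, SE 0.17). Aifm1, the mitochondrial apoptosis-inducing factor, stood at 39.2, 38.3 and 61.9 CPM against 72.5, 52.1 and 97.1 CPM (-0.67, SE 0.19). The lines overlapped for Aifm1 across macrophage status but not within it, and its spread within a line was about as wide as the difference. The ligand gene Apln and Arhgap36 had the largest SEs of the block, 0.72 and 0.75. The block also holds Stag2, a cohesin subunit of sister chromatids (-0.61), and Xiap, an inhibitor of caspases (-0.59), neither with an unadjusted p under 0.05. For Xiap the log2 ratio was -0.078 in replicates 1 and 2 but -1.58 in replicate 3.

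Set against Control libraries of the same macrophage status and after subtracting the autosomal median, the block's median log2 ratio was 0.53, 0.49 and 0.47 in VIN-R 1 to 3. In PAC-R 1 to 3 it was 0.08, 0.20 and -0.02, nearer to 0. In ERI-R 1 to 3 it was -0.0864, -0.205 and -0.681, so the measure can differ widely among libraries of 1 line. The distance between PAC-R and VIN-R in replicates 1 and 2 was fixed by the way the block was chosen. Only the values of replicate 3, set against 1 Control library, are independent of that choice. The 20 genes before the block had a median log2 fold change between lines of -0.0953 and the 20 genes after it, from Stk26 to Fgf13, of -0.373. This following stretch held both Fgf13, lower in PAC-R, and Xlr, higher in PAC-R. The block's median lay between -0.56 and -0.419 when any 1 library was left out, with 1 of the 33 positive without VIN-R 1. The number at an unadjusted p under 0.05 was 2 without PAC-R 1, 3 without either replicate 3, 11 without PAC-R 2 and 17 without VIN-R 1. These fits kept the same 33 genes and most of the libraries that chose them, so they are no independent check of the block's direction. Windows past the same threshold lay on 7 chromosomes. On chromosomes 1, 6, 7, 11, 14 and 19 their median in replicates 1 and 2 was positive, between 0.305 and 0.911. In replicate 3 it was between -0.1 and 0, and on the X chromosome it was -0.65. On chromosomes 1, 7, 11 and 19 the replicate 3 median was 0. A gene without counts in either library of that pair, such as Lyz2, also has a ratio of 0, so this contrast does not single out the X chromosome.

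**Figure D5:**
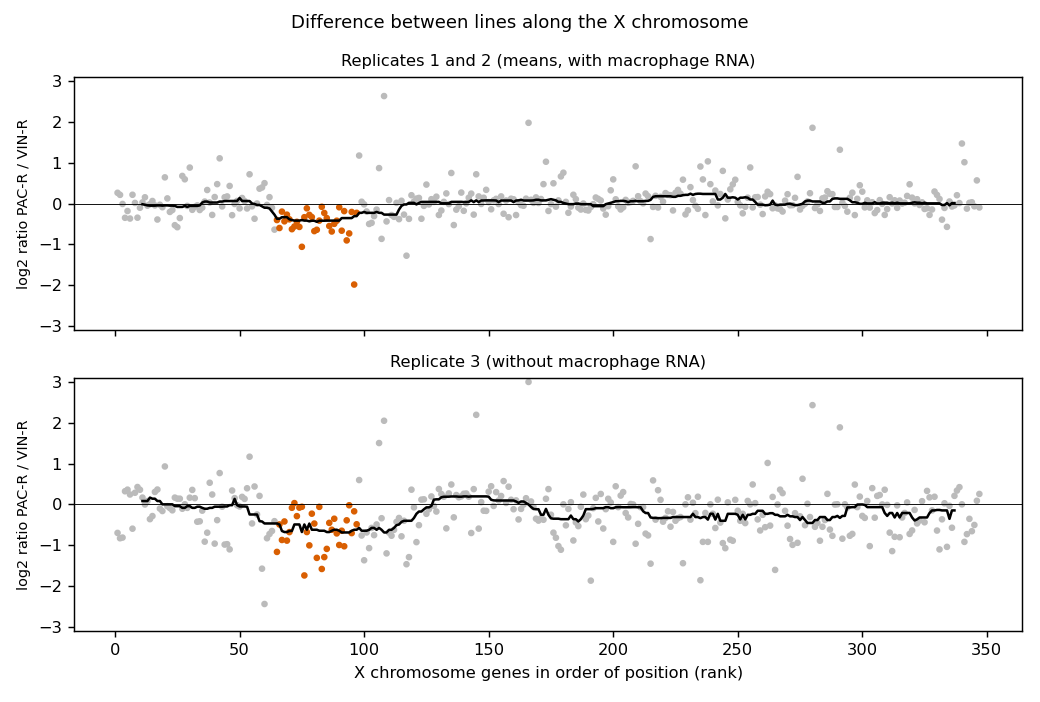
Log2 ratio of PAC-R over VIN-R for 347 genes of the X chromosome in order of position, from the means of replicates 1 and 2 (upper panel) and from replicate 3 (lower panel); the black line is the running median of 21 genes, orange points are the 33 genes of the block, and 1 point beyond 3 log2 units is drawn at that limit. The line dips below 0 at the block in both panels, with block medians of -0.42 and -0.623.

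Beside the other groups, the distance between these lines was small. In a fit of all 12 libraries with the same covariate, edgeR's adjusted p called 0 of 14226 genes between PAC-R and VIN-R (254 at an unadjusted p under 0.05). It called 2 higher and 1 lower in PAC-R than in Control, and 1 higher and 2 lower in VIN-R than in Control. Against ERI-R the same fit called 2194 genes higher and 1982 lower in PAC-R, and 2251 higher and 1976 lower in VIN-R. These comparisons share libraries, so their counts are not independent. Inhbb and Mcam, higher in PAC-R than in VIN-R, had ERI-R means of 244 and 120 CPM, above both lines, while Cavin1, Ildr2 and Xlr had ERI-R means of 0.508, 0.102 and 0.254 CPM, below both.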

How the data were processed

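RNA of 12 libraries was measured, and the 3 PAC-R and 3 VIN-R libraries were compared. The deposited files are gene-level RSEM output, per the file headers, whose expected counts estimate the fragments of each gene, and the deposited TPM values, which are per length, were used only to compare levels between genes. RSEM 1.3.2, STAR 2.7.2b, cutadapt 2.4, bcl2fastq 2.20.0.422 and the build GRCm38 are named in the submitters' processing notes. The annotation used there is not given in the sources used here, nor is the strand setting, so antisense partners cannot be told apart. Symbols and positions came from GENCODE M21, which held 55480 of 55573 genes.

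Expected counts were rounded (15.3% of values above 0 changed), filtered with filterByExpr, scaled by TMM and fitted with edgeR 4.0.16 (glmQLFit, robust) on macrophage RNA and line, with 3 residual degrees of freedom (R 4.3.3, limma 3.58.1, DESeq2 1.42.0). Adjusted p is Benjamini-Hochberg over all 13069 genes, called under 0.05. Fold changes are edgeR's, and SEs and 95% intervals come from the F statistic. The fits were run on simulated counts set to spread less than these libraries, whose common biological coefficient of variation was 0.312. That run does not show how many true differences would be called here. Named genes were those called or, with fewer than 20 called, the 10 smallest p-values in each direction, plus 16 genes named in every case (Abcb1a, Abcb1b, Abcc1, Abcg2, 6 beta-tubulins, Cdh1, Epcam, Vim, Zeb1, Lyz2, Ptprc). The 39 lists held 1174 symbols, 1173 of them matched. Members, lists and rules were chosen with earlier results of these data known, so a direction they share with those results is not independent support. In the pairing check, deviations of same-numbered libraries from their group means correlated at 0.276, 0.80 and 0.94 across genes for replicates 1 to 3. Within the libraries with macrophage RNA the value was -0.292. Chi-square values per gene between replicates were 53.2 to 259, far above the sampling noise of a repeated library.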

Additional observations from a re-analysis of the deposited data

How the results depend on the processing

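The 20 genes with the smallest p kept their direction in all 359 values from the alternatives. Genes called higher and lower numbered 26 and 6 with DESeq2, 6 and 2 without a filter on low counts (24105 genes tested), and 1 (Cavin1) and 0 with the leukocyte score as covariate, as with presence and score together, a setting chosen after seeing the data. Without a filter these were Cavin1, Dysf, Xlr, Col4a6, Mcam, Col6a1, Krt7 and Gm14440. With the replicate block, which pairs libraries of the same number, 0 were called (161 higher and 107 lower at an unadjusted p under 0.05, smallest adjusted p 0.702). No covariate, all 12 libraries, the 4 libraries with macrophage RNA, RLE size factors, total counts alone, 1 CPM in 3 libraries and limma voom (also chosen after seeing the data) called 0, and leaving out each library gave between 0 and 0. The interaction called 2 genes with DESeq2 and 1 (Gm10132) without a filter, and it has no data without replicate 3 of a line.

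Signs flipped only among the genes named in every case, 11 of 16. They were Tubb4b 0.038 and Zeb1 0.016 without covariate. With the leukocyte score they were Tubb4b 0.11, Tubb5 0.035, Tubb6 0.076, Lyz2 -0.42 and Ptprc -0.20. With presence and score they were Tubb4b 0.13, Tubb5 0.12, Tubb6 0.066 and Lyz2 -0.054. In the 4 libraries they were Abcc1 0.069, Vim -0.19 and Zeb1 0.12. Vim was -0.015 with total counts and -0.0057 without a filter. Leaving out 1 library gave ranges of -0.12 to 0.35 for Abcg2, -0.038 to 0.42 for Tubb2a, -0.11 to 0.84 for Tubb3, -0.19 to 0.34 for Vim, -0.17 to 0.12 for Zeb1, -0.60 to 2.36 for Lyz2, -0.31 to 2.15 for Ptprc, -0.25 to 0.33 for Tubb4b, -0.26 to 0.30 for Tubb5, -0.33 to 0.26 for Tubb6 and -0.28 to 0.070 for Abcc1. The cause was not tested. With 3 libraries per line and 1 pair without macrophage RNA, the median interval spanned 0.615 log2 units on either side. That width is not a limit of detection. Much larger differences went uncalled by edgeR, such as Cavin1 at 2.76 (adjusted p = 0.238), so the lack of a call does not exclude a difference.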
